A study of Homo sapiens with 60 samples.

Results

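The 42 genes described here make up a DNA replication and S phase module. They are the rows of the deposited count table whose Ensembl identifiers carry a fixed list of symbols, 42 of 60675 identifiers, and all 42 symbols were found. Each of the 42 passed the filter on low counts, which left 16692 genes. RNA was sequenced from HepG2, a line established from a human liver tumour, after 24 h with vehicle or with an extract made in 70% ethanol. The 60 libraries form 25 groups. There were 3 vehicle libraries (DMSO only). Cnidium (Cnidii Rhizoma), Rehmannia (Rehmanniae Radix Preparata), Astragalus (Astragali Radix) and Cinnamon (Cinnamomi Cortex) had 3 libraries at each of 20, 100 and 500 µg/mL. Angelica (Angelicae Gigantis Radix), Paeonia (Paeoniae Radix) and the formula Sagunja-tang had 2 libraries per dose, and the formula Samul-tang had 1. All groups share the cell line, which comes from 1 tumour, the medium and the time point.

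A cell copies its DNA once per cycle. In G1 the origin recognition complex, CDC6 and CDT1 load the MCM helicase on origins, and in S phase CDC45 and the GINS complex join it, polymerases alpha, delta and epsilon copy the strands behind the PCNA clamp, and FEN1 and ligase join the Okazaki fragments. Many of these genes are transcribed at the G1/S boundary by E2F factors, which the RB protein holds back until cyclin E and its kinase act. HepG2 cells divide in culture, so the module is active in untreated cells. In bulk RNA, fewer cells in S phase and less RNA of these genes per cell cannot be told apart.

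A few facts of the whole set bear on what follows. Summed counts per library ran from 21485882 to 34643028. Labels give the vehicle as 0.1% DMSO and the series text as 2%. The text also describes lower doses for extracts that inhibited 20% below 500 µg/mL, whereas the labels give the same 3 doses throughout, and the labels' doses are used. The vehicle libraries carry their own code prefix and extracts share prefixes in pairs, so an extract's difference from vehicle and a difference between prefixes cannot be told apart. Steps from 20 to 500 µg/mL within an extract stay within a prefix. No label says that replicates are separate cultures, and p-values then measure only the spread between these libraries. Of 10 hepatocyte markers all 10 were tested, with a summed level of 37560 to 68805 CPM (counts relative to the scaled library size). Of 10 markers of other cell types 6 were tested, 1 was at 0 in every library, and the summed level was 118.8 to 230.5 CPM.

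The level of the module was summarised in each library as the mean, over the 42 members, of log2 CPM minus the vehicle mean. The 3 vehicle libraries lay at -0.04, 0.01 and 0.03. Astragalus at 500 µg/mL lay at -1.35, -1.39 and -1.42, and Paeonia at 500 µg/mL at -0.57 and -0.58. Both groups were below every other library of the set, and they did not overlap each other. Astragalus at 100 µg/mL came next, from -0.35 to -0.26. All remaining extract libraries lay between -0.24 and -0.03, and neighbouring groups in that range overlapped in many places. The lowest vehicle library (-0.04) lay below 1 of them, a Cinnamon library at 500 µg/mL (-0.03).

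**Figure D1:**
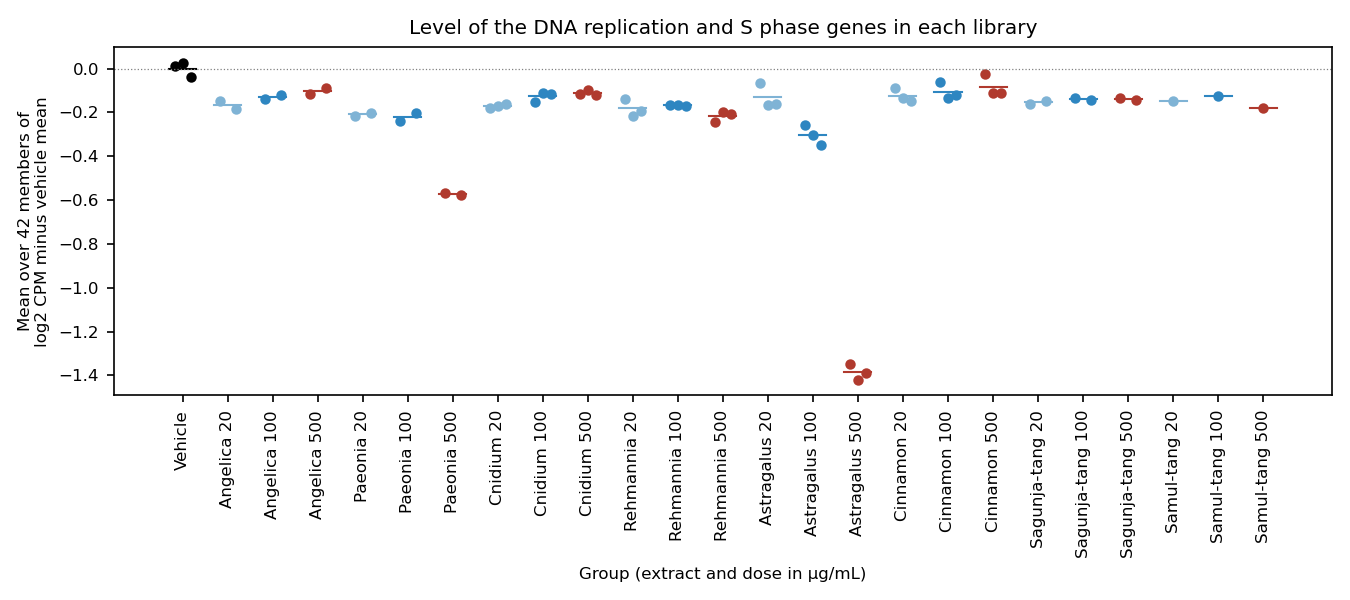
Mean over the 42 members of log2 CPM minus the vehicle mean (vertical axis) in each of the 60 libraries, by group with the dose in µg/mL (horizontal axis). Points are libraries and short lines are group means; Astragalus 500 lies between -1.42 and -1.35, Paeonia 500 at -0.58 and -0.57, and the vehicle libraries between -0.04 and 0.03.

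The promoters are shown because the members moved together and E2F factors are their known regulators. RefSeq promoter windows of GRCh38.p14, from 250 bases before to 50 after a start site, were matched by symbol for 36 of 42 members. The windows were searched on both strands for an E2F-like core, that is TTCCCGC, or else TTCGCGC, or else TTGCCGC, or else TTGGCGC, whose matches may overlap each other. A core was present in at least 1 window of 30 of the 36 genes (83.3%), and in 24.0% of 10794 tested genes with an entry. Counted by window, it was in 68.1% of 47 member windows and 18.5% of all 15564 windows of the same length. The CCAAT box was in 58.3% of the member genes and 42.8% of all genes. The cell cycle homology region of mitotic genes (CHR) was in 5.56% and 15.7%. Stretches of 80 bases around the core nearest to the start site follow for 6 members, 5′ to 3′ on the gene's strand, with cores in capitals. A match is a description of letters and not a binding site.
MCM3, chr6:52284718-52284797, minus strand: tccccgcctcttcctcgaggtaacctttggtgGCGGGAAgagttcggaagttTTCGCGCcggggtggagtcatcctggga
CDC6, chr17:40287824-40287903, plus strand: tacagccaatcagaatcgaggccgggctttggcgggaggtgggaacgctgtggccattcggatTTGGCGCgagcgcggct
PCNA, chr20:5126639-5126718, minus strand: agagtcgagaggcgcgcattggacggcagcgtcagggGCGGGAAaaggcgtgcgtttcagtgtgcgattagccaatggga
UHRF1, chr19:4909446-4909525, plus strand: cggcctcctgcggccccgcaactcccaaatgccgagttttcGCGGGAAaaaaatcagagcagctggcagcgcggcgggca
E2F1, chr20:33686362-33686441, minus strand: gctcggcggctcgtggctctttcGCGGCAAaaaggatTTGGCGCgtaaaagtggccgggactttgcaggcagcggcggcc
CDT1, chr16:88803729-88803808, plus strand: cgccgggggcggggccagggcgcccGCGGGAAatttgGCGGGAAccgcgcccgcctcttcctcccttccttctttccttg

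Members with and without a core fell by similar amounts. From 20 to 500 µg/mL of Astragalus the median log2 change was -1.15 over the 30 members with a core and -1.04 over the 6 without. For Paeonia the same medians were -0.35 and -0.41. CDT1, with 2 cores in its window, was the only member called higher with Astragalus. UHRF1, with 2 cores in 1 of its windows and 1 in another, was among the most lowered. Only 6 members had no core, and the relation of cores to the change was not tested.

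In vehicle cells the members differed widely in level. PCNA, the sliding clamp, was highest at 206.8 CPM per kb of exon ± 18.3 (SD, n = 3). MCM3 followed at 60.9 ± 2.05 and RRM2, the ribonucleotide reductase subunit made in S phase, at 59.96 ± 1.78, a difference within their spread. CCNE2, cyclin E2, was lowest at 1.19 ± 0.045. Exons of 10 members overlap a protein-coding gene on the opposite strand and those of 7 overlap one on the same strand in GENCODE 29, among them TYMS with ENOSF1. PRIM2 has near-identical copies in the genome. How the authors' counting split such reads is not given in the sources used here, and these levels are less certain.

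With Astragalus at 500 µg/mL, 41 of 42 members fell against vehicle, where 36.1% of all tested genes were called lower. The median log2 fold change of the members was -1.29, and that of all genes was -0.05. Against Astragalus at 20 µg/mL 41 of 42 also fell (all genes 35.3%), with a median of -1.19, and CDT1 rose (all genes 34.2%). Genes were called at an adjusted p below 0.05 in edgeR's quasi-likelihood test. The 3 Astragalus libraries and the vehicle libraries overlapped for CDT1 alone, and no member overlapped between 20 and 500 µg/mL. Of all tested genes 70.1% did not overlap in the first of these comparisons and 70.5% in the second. The share of counts from mitochondrial genes moved with this group, from 14.2% ± 0.93 (SD, n = 3) in vehicle to 25.8% ± 1.45 at 500 µg/mL. The same numbers of members, 41 lower against vehicle and 41 lower against 20 µg/mL, were called with the mitochondrial genes left out. The scaling of the libraries already offsets such a shift, so this refit could change little. Angelica at 500 µg/mL had a mitochondrial share of 19.7% ± 1.01 (SD, n = 2) with 12 members lower than vehicle (all genes 10.9%). Paeonia at 500 µg/mL had 20.9% ± 1.70 (SD, n = 2) with 40 members lower (all genes 23%). The relation of the mitochondrial share to the module was not tested. Of the 6 tested markers of other cell types 4 were called higher and 2 lower with Astragalus than with vehicle, and of the 10 hepatocyte markers 5 higher and 4 lower. Their part in the result was not tested.

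All 6 subunits of the MCM helicase, which unwinds the DNA, fell with Astragalus. Their log2 changes from vehicle ran from -0.95 to -1.76. MCM5 stood at 109, 118 and 108 CPM in the vehicle libraries and at 61.7, 52.6 and 50.5 with Astragalus. The highest treated library was below the lowest vehicle library, and the log2 fold change was -1.02 ± 0.06 (SE, adjusted p = 3.11e-19). MCM3 had the largest change of the 6, from 222, 230 and 215 CPM to 64.6, 68.8 and 63.3.

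Of the 9 licensing and firing factors 8 fell against vehicle. CDC6, which loads the helicase with the origin recognition complex, stood at 109, 108 and 106 CPM in vehicle and at 27.1, 26.7 and 27.9 with Astragalus. The libraries of each group were close together and the groups far apart, with a log2 fold change of -1.97 ± 0.04 (SE, adjusted p = 3.77e-35). The origin subunits ORC1 and ORC6 fell by 1.66 and 1.95 on the log2 scale, and MCM10, needed to start the fork, fell by 2.60. The helicase activators CDC45, GINS1, GINS2 and GINS3 fell by 0.99 to 1.48.

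CDT1, the partner of CDC6 in loading the helicase, did not follow. Its CPM were 60.6, 67.6 and 57.9 in vehicle, 51.7, 50.8 and 47.5 with Astragalus at 20 µg/mL, and 71.0, 58.9 and 56.7 at 500 µg/mL. The 500 µg/mL libraries overlapped the vehicle libraries and lay above all 3 at 20 µg/mL. The log2 fold change was -0.00 ± 0.07 against vehicle (adjusted p = 1.00) and 0.31 ± 0.07 against 20 µg/mL (adjusted p = 1.23e-04).

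The clamp, its loader and the polymerases fell as well. PCNA went from 335, 292 and 285 CPM to 176, 173 and 167, with no overlap and a log2 fold change of -0.82 ± 0.07 (SE, adjusted p = 2.79e-14). Of the loader subunits RFC4 changed most (-1.82) and RFC2 least (-0.73). POLE2, the second subunit of polymerase epsilon, stood at 15.7, 14.5 and 14.5 CPM in vehicle and 4.90, 5.64 and 5.97 with Astragalus. That is a log2 fold change of -1.43 ± 0.10 (SE, adjusted p = 8.66e-17). Polymerase alpha (POLA1, -1.66; POLA2, -1.09) and the primase subunits PRIM1 (-1.50) and PRIM2 (-0.82) also fell.

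FEN1, the flap nuclease of Okazaki fragments, stood at 71.1, 74.7 and 70.3 CPM in vehicle and at 30.6, 26.4 and 27.0 with Astragalus. The groups did not overlap, and the log2 fold change was -1.36 ± 0.07 (SE, adjusted p = 2.55e-22). LIG1, the ligase that seals the fragments, fell by 0.95 on the log2 scale. RPA2, a subunit of the single-strand binding protein, fell by 0.52. It was the third smallest of the called falls, after TYMS and TK1.

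Nucleotide supply genes fell unequally. RRM2 stood at 321, 328 and 309 CPM in vehicle and 134, 124 and 127 with Astragalus, a log2 fold change of -1.31 ± 0.04 (SE, adjusted p = 3.56e-30). RRM1, the large subunit of the same enzyme, fell by 1.26. Thymidylate synthase (TYMS, -0.39) and thymidine kinase (TK1, -0.43) fell least of all called members.

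UHRF1 brings the methyltransferase DNMT1 to newly copied DNA. It stood at 102, 113 and 108 CPM in vehicle and at 17.5, 17.5 and 18.1 with Astragalus, a log2 fold change of -2.61 ± 0.07 (SE, adjusted p = 1.98e-32). DNMT1 itself fell by 1.26, and the subunits CHAF1A and CHAF1B of the chromatin assembly factor fell by 1.41 and 0.97. E2F1, an activating E2F factor, stood at 58.1, 66.4 and 60.6 CPM in vehicle and at 41.6, 36.1 and 34.1 with Astragalus. Its log2 fold change of -0.73 ± 0.10 (SE, adjusted p = 1.15e-08) was smaller than that of most members.

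**Figure D2:**
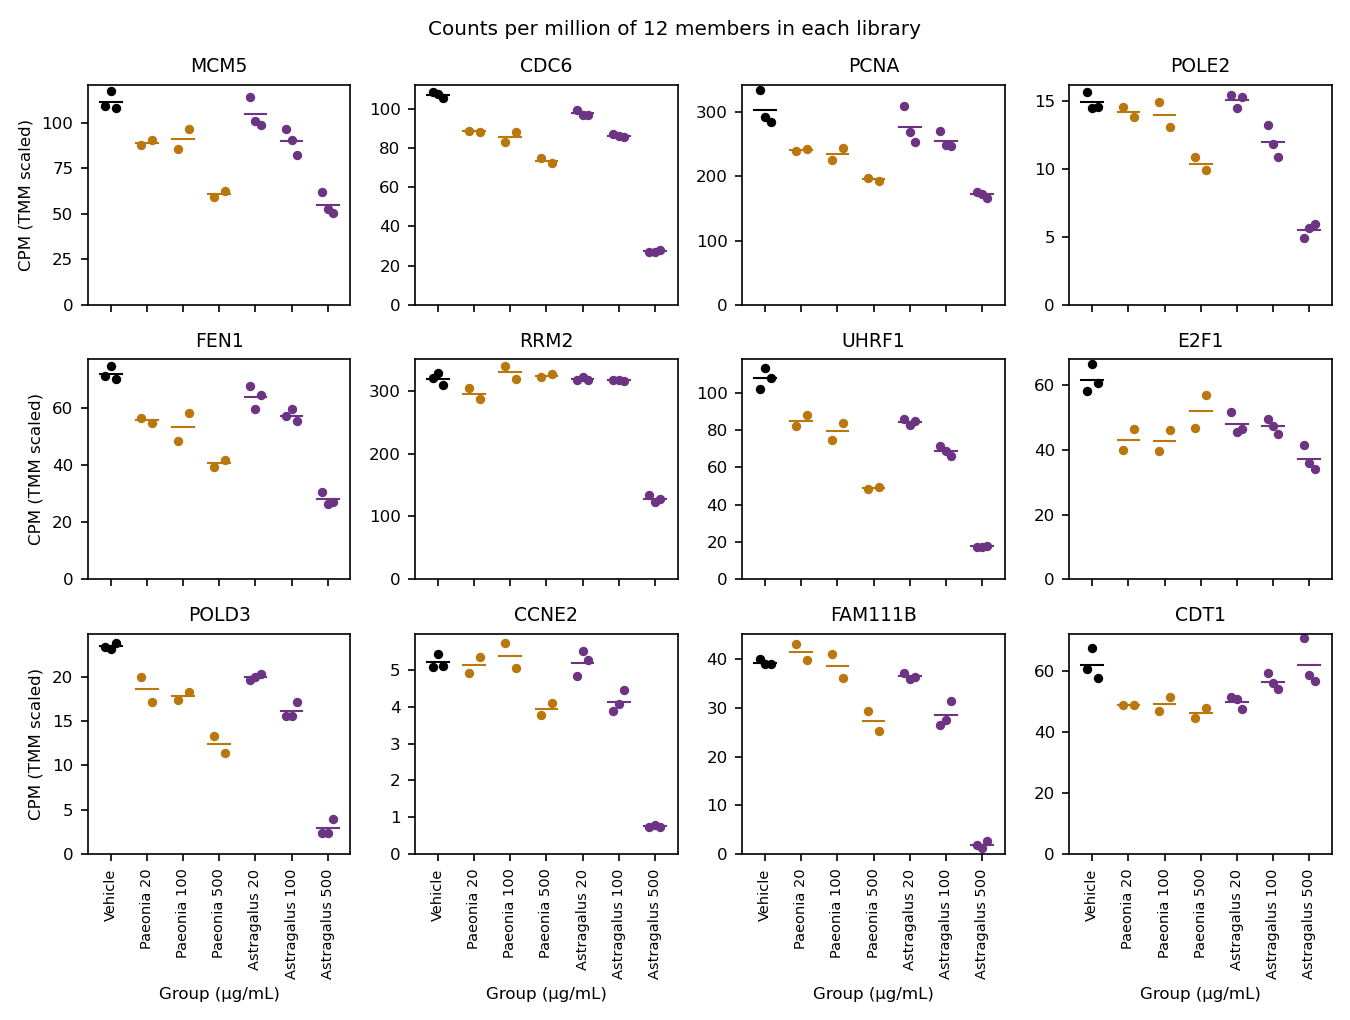
CPM (vertical axes, from 0) of 12 members in vehicle and in Paeonia and Astragalus at 20, 100 and 500 µg/mL (horizontal axes). Points are libraries and short lines are group means; CDC6 lies near 27 CPM in Astragalus 500 against 106 to 109 in vehicle, whereas CDT1 overlaps the vehicle.

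The 3 largest steps from 20 to 500 µg/mL of Astragalus were those of FAM111B, CCNE2 and POLD3. FAM111B, a protease that is made in S phase, stood at 37.3, 35.9 and 36.5 CPM at 20 µg/mL, 26.6, 27.6 and 31.4 at 100 µg/mL, and 1.83, 1.16 and 2.63 at 500 µg/mL. Each dose lay below the one before, and the log2 fold change over the whole step was -4.23 ± 0.12 (SE, adjusted p = 2.36e-30), to 0.0532 times the lower dose. CCNE2 went from 4.83, 5.51 and 5.27 CPM to 0.733, 0.792 and 0.738 (-2.78 ± 0.19, SE, adjusted p = 2.59e-17). POLD3 went from 19.6, 20.0 and 20.3 CPM to 2.34, 2.38 and 3.93 (-2.75 ± 0.09, SE, adjusted p = 1.44e-27). CCNE2 is the member with the fewest counts, and its error was the widest of the 3.

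Subunits of one enzyme moved apart. In polymerase delta, which copies the lagging strand, the catalytic subunit POLD1 fell by 0.73 on the log2 scale in this step and the accessory subunit POLD3 by 2.75. The subunits POLD2 and POLD4, which are not members, rose by 0.48 ± 0.05 and 1.92 ± 0.08 (SE, adjusted p = 1.57e-10 and 3.07e-24). POLD4 went from 6.62, 6.07 and 6.83 CPM to 25.0, 25.2 and 23.5, with no overlap. POLE4, a small subunit of polymerase epsilon, rose by 0.90 ± 0.09 (SE, adjusted p = 8.81e-13), whereas POLE and POLE2 fell by 1.12 and 1.44. CCNE1, the other cyclin E, fell by 0.88 ± 0.07 (SE, adjusted p = 5.88e-15), less than CCNE2, though the difference between these genes was not tested.

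At 100 µg/mL of Astragalus part of the module was already lower. Against vehicle 32 of 42 members fell (all genes 20%), with a median log2 fold change of -0.30. Against 20 µg/mL 19 fell (all genes 15.2%), with a median of -0.15. The largest of these steps were RFC4 (-0.58 ± 0.08, SE), POLE (-0.49 ± 0.05) and ORC6 (-0.45 ± 0.06). None of the 4 nucleotide supply genes was called here, with log2 changes between -0.05 and 0.06. RRM2 stood at 318, 317 and 315 CPM, level with 316, 322 and 316 at 20 µg/mL.

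Paeonia at 500 µg/mL lowered nearly the whole module by a smaller amount. Against vehicle 40 of 42 members fell, where 23% of all genes were called lower, and the median log2 fold change was -0.55. Against Paeonia at 20 µg/mL 35 fell (all genes 13.9%) with a median of -0.37, and the 2 and 2 libraries overlapped for no member, where 63.5% of all genes did not overlap. All 6 MCM genes fell against vehicle, by 0.64 to 0.87. The mitochondrial share was 20.9% ± 1.70 (SD, n = 2), against 17.6% ± 1.43 at 20 µg/mL. With mitochondrial genes left out, 40 members were again called lower against vehicle and 35 against 20 µg/mL. As with Astragalus, that refit could change little.

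UHRF1 had the largest Paeonia step. It stood at 81.9 and 88.2 CPM at 20 µg/mL and at 48.4 and 49.5 at 500 µg/mL, a log2 fold change of -0.80 ± 0.07 (SE, adjusted p = 6.98e-12). POLD1 went from 23.5 and 26.9 CPM to 15.1 and 17.1 (-0.64 ± 0.12, SE, adjusted p = 5.68e-05), and MCM4 from 224 and 210 to 146 and 139 (-0.61 ± 0.06, SE, adjusted p = 2.56e-11). In each of the 3 genes both high dose libraries lay below both low dose ones. Against vehicle MCM5 fell to 59.0 and 62.7 CPM (-0.87 ± 0.07, SE), CDC6 to 75.1 and 72.2 (-0.54 ± 0.04), PCNA to 197 and 193 (-0.64 ± 0.08), POLE2 to 10.8 and 9.90 (-0.53 ± 0.10) and FEN1 to 39.4 and 41.8 (-0.83 ± 0.07). These 5 genes, from helicase to flap nuclease, had adjusted p-values of 3.80e-05 or lower.

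RRM2 and E2F1 were the members not called lower than vehicle with Paeonia at 500 µg/mL. RRM2 stood at 322 and 326 CPM against 321, 328 and 309 in vehicle (0.02 ± 0.04, SE, adjusted p = 0.715). Against 304 and 287 CPM at 20 µg/mL it was called higher (0.13 ± 0.05, SE, adjusted p = 0.0224; all genes 16.8%). That call was lost without replicate 2 of Paeonia at 500 µg/mL (adjusted p = 0.0913), without replicate 3 there (0.158), without replicate 3 at 20 µg/mL (0.258), with no filter on low counts (0.278) and in a fit of the compared groups alone (0.126). E2F1 stood at 46.8 and 57.0 CPM, below all 3 vehicle libraries, with a log2 difference of -0.25 ± 0.11 (SE, adjusted p = 0.0598) that missed the threshold. CCNE2 was called lower than vehicle (-0.40 ± 0.16, SE, adjusted p = 0.032), and this call was lost without vehicle replicate 2 (0.0806), without either Paeonia library (0.163 and 0.0753) and in DESeq2 (0.0517).

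**Figure D3:**
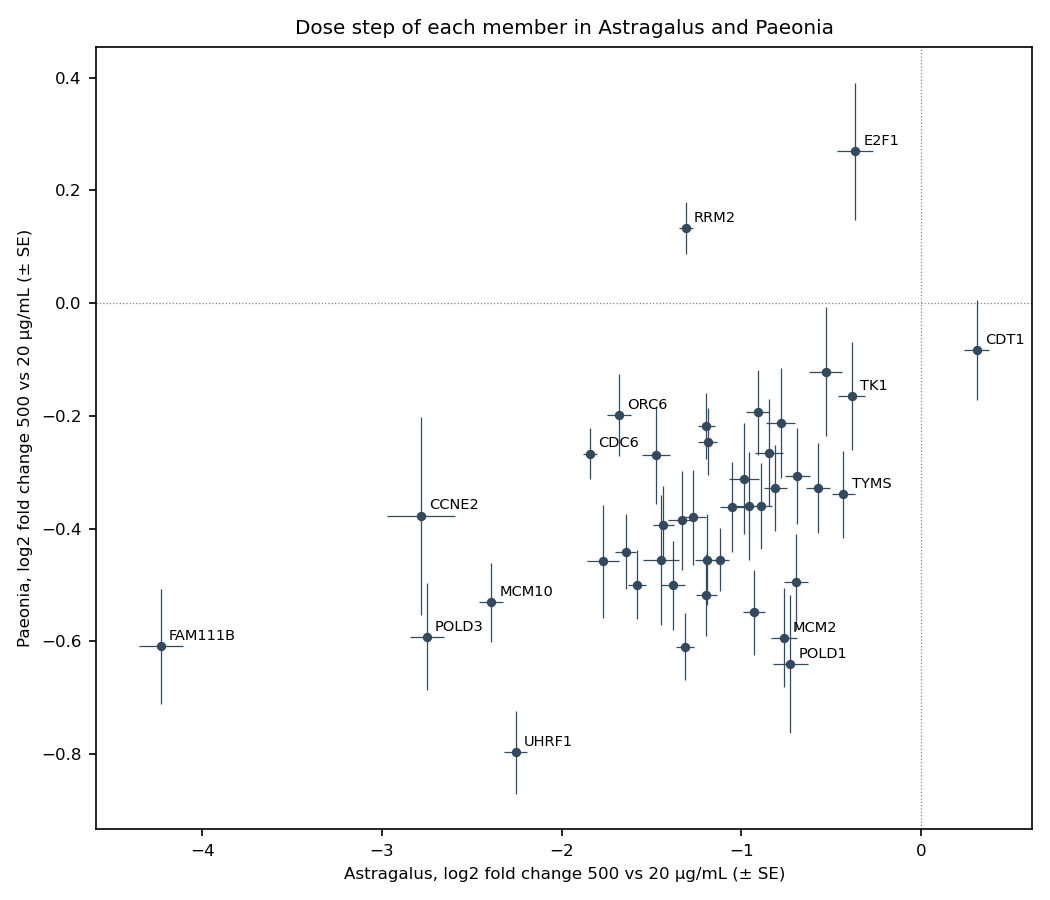
Log2 fold change from 20 to 500 µg/mL of each of the 42 members with Astragalus (horizontal axis) and Paeonia (vertical axis), with bars of 1 standard error. FAM111B lies at -4.23 and -0.61 and UHRF1 at -2.26 and -0.80, while RRM2 (-1.31 and 0.13) and E2F1 (-0.36 and 0.27) stand above 0 on the Paeonia axis only.

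The 2 extracts were compared directly at 500 µg/mL, where 33 members were lower with Astragalus (all genes 31.7%) and CDT1 was higher (30.2%), with a median log2 difference of -0.70. FAM111B differed most (-3.81 ± 0.13, SE, adjusted p = 2.56e-26), then CCNE2 (-2.39 ± 0.22) and POLD3 (-2.05 ± 0.11). RRM2 differed by -1.34 ± 0.04 (SE, adjusted p = 6.31e-28). A difference was not called for 8 members, namely MCM2, MCM5, RFC2, POLD1, LIG1, RPA2, TYMS and TK1, whose log2 differences ran from -0.18 for RFC2 to 0.11 ± 0.12 for POLD1 (adjusted p = 0.422). So MCM2, at 76.8 and 74.1 CPM with Paeonia and 79.4, 72.2 and 61.1 with Astragalus, reached levels that overlapped, whereas MCM3, at 131 and 128 against 64.6, 68.8 and 63.3, did not. Across the 42 members the Astragalus and Paeonia steps had a Spearman rho of 0.44, and across 13104 protein-coding genes 0.55. These genes share the same libraries and are not independent replicates.

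Against the extract of the same code prefix at the same dose, Astragalus was lower than Cinnamon in 41 members (all genes 35.5%) with a median of -1.23. CDT1 was called higher by 0.23 ± 0.07 (SE, adjusted p = 0.00293; all genes 34.8%), a call lost without replicate 1 of Astragalus at 500 µg/mL (0.0966). Paeonia was lower than Angelica in 37 members (all genes 18.8%), with a median of -0.47. E2F1 was called higher there (0.29 ± 0.12, SE, adjusted p = 0.049; all genes 20.4%), and the call was lost without replicate 3 of either group (0.321 without that of Angelica, 0.54 without that of Paeonia) and under other size factors.

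At 20 µg/mL, the lowest dose, the module was already slightly below vehicle in every extract. With the mean of the 7 replicated extracts at 20 µg/mL (18 libraries) set against vehicle, 27 of 42 members fell, where 16.8% of all genes were called lower. The median was -0.19 for the members and -0.01 for all genes. Every such comparison uses the same 3 vehicle libraries. E2F1 changed most: the 18 libraries ranged from 39.95 to 57.7 CPM with a median of 46.4, and all 18 lay below the 3 vehicle libraries (58.1, 66.4 and 60.6). Its log2 fold change was -0.42 ± 0.07 (SE, adjusted p = 1.83e-05). UHRF1 ranged from 79.0 to 104 CPM with a median of 85.3, and 17 of 18 libraries lay below all vehicle libraries (-0.33 ± 0.04, SE, adjusted p = 1.60e-07). CDT1 ranged from 45.1 to 56.1 CPM with a median of 49.4, and all 18 lay below vehicle (-0.32 ± 0.05, SE, adjusted p = 7.78e-06).

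By role, 6 of 6 MCM genes and 8 of 9 licensing and firing factors fell at 20 µg/mL, but 4 of 8 polymerase and primase genes and 1 of 4 chromatin genes did. CDC6 ranged from 87.5 to 102 CPM, with all 18 libraries below vehicle (-0.20 ± 0.03, SE, adjusted p = 6.97e-07), and FEN1 fell by 0.28 ± 0.05 (SE, adjusted p = 1.63e-05). POLE2 (0.00 ± 0.07, SE) and RRM2 (-0.03 ± 0.03) did not pass the test, with adjusted p of 0.985 and 0.474. The falls of MCM5 (-0.18 ± 0.04, SE) and MCM4 (-0.11 ± 0.04) were lost without vehicle replicate 2, with adjusted p of 0.055 and 0.0816, and that of MCM4 also with no filter on low counts (0.0766). Taken separately at 20 µg/mL, Angelica had 21 members lower than vehicle (all genes 13.8%), Paeonia 26 (10.1%), Cnidium 24 (9.18%), Rehmannia 24 (10.1%), Astragalus 15 (6.14%), Cinnamon 11 (5.07%) and Sagunja-tang 18 (6.69%). These 139 calls became 97 without vehicle replicate 2.

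At 100 µg/mL the members called below vehicle numbered 17 for Angelica (all genes 10.9%), 25 for Paeonia (9.43%), 15 for Cnidium (8.24%), 24 for Rehmannia (6.82%), 8 for Cinnamon (3.71%) and 11 for Sagunja-tang (7.11%). From 20 to 100 µg/mL edgeR called no member in these 6 extracts, where 0.00599% (Angelica), 0% (Paeonia), 0.18% (Cnidium), 0.00599% (Rehmannia), 0% (Cinnamon) and 0.0539% (Sagunja-tang) of all genes were called. At an unadjusted p below 0.05 there were 1, 2, 3, 2, 0 and 0 members in the same order, and DESeq2 called none either. The share of all genes at that unadjusted cut-off was not counted. Over all replicated extracts, Astragalus included, the calls against vehicle at 100 µg/mL numbered 132, and 92 without vehicle replicate 2.

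**Figure D4:**
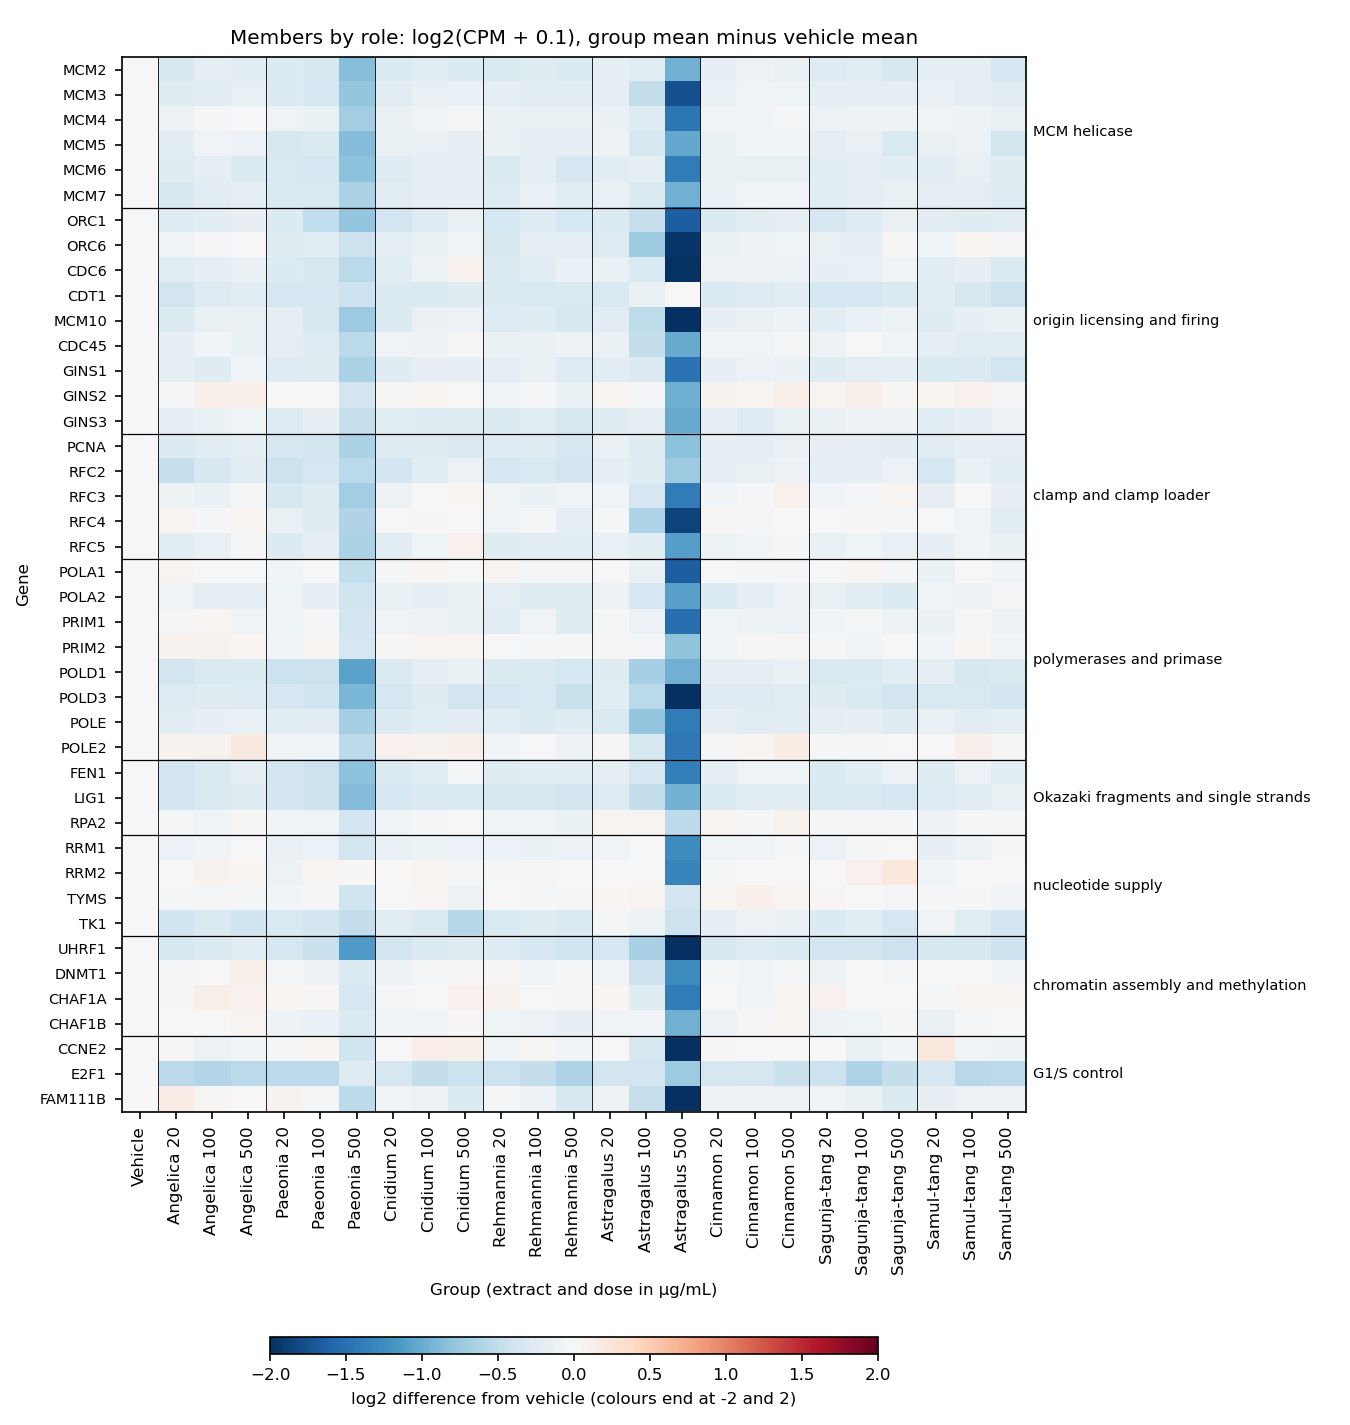
Log2(CPM + 0.1) of each member, group mean minus vehicle mean, in 25 groups (columns, dose in µg/mL) with members ordered by role (rows). Blue is lower and red is higher than vehicle, with colours ending at -2 and 2; the Astragalus 500 and Paeonia 500 columns are the darkest, CDT1 is near 0 in Astragalus 500, and the E2F1 row is pale to mid blue in all extract groups.

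At 500 µg/mL the other 5 replicated extracts had smaller differences from vehicle. Rehmannia had 28 members lower than vehicle (all genes 9.58%) with a median of -0.22, among them E2F1 (-0.62 ± 0.10, SE, adjusted p = 1.10e-05), POLD3 (-0.44), UHRF1 (-0.39) and all 6 MCM genes. Cnidium had 16 lower (all genes 15%, median -0.12), Sagunja-tang 14 (11.8%, -0.12), Angelica 12 (10.9%, -0.10) and Cinnamon 8 (6.78%, -0.09). Set instead against the mean of the other 6 extracts at 20 µg/mL, Rehmannia had 2 members lower and none higher. For Rehmannia 4.31% of all genes were called either way. Cnidium had 2 lower and 8 higher (all genes 31%) and Sagunja-tang 1 lower and 6 higher (22.9%). Angelica had 2 higher (6.27%) and Cinnamon 8 higher (10.8%), with no member lower in this pair. Outside Cinnamon these counts were near or below the share over all genes. The counts against vehicle rest on few libraries. Rehmannia gave 19 without its replicate 1. Cnidium gave 10 without vehicle replicate 2. Sagunja-tang, with 15 called in either direction, gave 7 without its replicate 2. Angelica gave 5 without vehicle replicate 2, 5 without its own replicate 2 and 4 without its replicate 3. Cinnamon gave 3 to 5 without vehicle replicate 1 or 2 or its own replicate 2 or 3.

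E2F1 fell against vehicle in 6 of the 7 extracts at 500 µg/mL, Paeonia being the exception. It stood at 45.3 and 39.8 CPM with Angelica, 45.1, 44.8 and 46.7 with Cnidium, 40.8, 36.4 and 42.9 with Rehmannia, 47.3, 40.7 and 47.9 with Cinnamon, and 43.2 and 45.2 with Sagunja-tang. All of these lay below the lowest vehicle library, and the log2 fold changes ran from -0.44 to -0.62. UHRF1, POLD3, POLE and LIG1 fell against vehicle in all 7 extracts at each of the 3 doses. All of these comparisons use the same 3 vehicle libraries, and the share of all genes lower in every one was not counted. CDC6 shows a contrasting pattern, with 114, 111 and 115 CPM under Cnidium at 500 µg/mL, above all 3 vehicle libraries. It was not called higher than vehicle there.

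Against each extract's own 20 µg/mL group, little of this changed at 500 µg/mL outside Astragalus and Paeonia. With edgeR no member was called for Angelica (all genes 1.05%) or Cinnamon (0.809%). At an unadjusted p below 0.05 there were 4 and 2 members, all higher, and DESeq2 called none. The share of all genes at that unadjusted cut-off was not counted. Rehmannia had 1 call, CDC6, which was higher by 0.14 (all genes 1.41%). It was lost without replicate 2 or 3 at 500 µg/mL or replicate 3 at 20 µg/mL. Sagunja-tang had 1 call (all genes 10.4%), RRM2, which went from 314 and 323 CPM to 370 and 367 (0.21 ± 0.05, SE, adjusted p = 0.00122). With no filter on low counts this step had 0 members called. RRM2 was also above vehicle there (0.21 ± 0.04, SE, adjusted p = 1.63e-04; all genes 13.8%), the only member called higher than vehicle in any extract at any dose.

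Cnidium moved 8 members up and 1 down from 20 to 500 µg/mL, where 9.56% of all genes were called higher and 8.83% lower. RFC5, a clamp loader subunit, rose by 0.31 ± 0.07 (SE, adjusted p = 0.00142), CDC6 by 0.29 ± 0.04 (adjusted p = 6.61e-08) and FEN1 by 0.25 ± 0.06 (adjusted p = 0.00271). TK1, which salvages thymidine, fell from 55.7, 60.6 and 59.6 CPM to 42.4, 47.9 and 46.8 (-0.36 ± 0.08, SE, adjusted p = 5.12e-04). Vehicle libraries stood at 64.3, 71.4 and 67.6 CPM, so TK1 with Cnidium moved further from vehicle. CDC6 came to lie above the vehicle libraries, but was not called higher than vehicle. Without replicate 1 at 20 µg/mL 5 members were called in place of 9. Against Rehmannia at 500 µg/mL Cnidium was higher in 6 members (all genes 4.76%) and lower in TK1 (all genes 5.3%; -0.27 ± 0.08, SE, adjusted p = 0.0173). Of these 7 calls 1 was left without Rehmannia replicate 1 and 4 without its replicate 3, and the TK1 call was lost without either (0.0738 and 0.0509) and without Cnidium replicate 1 (0.114).

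The dose steps were also tested against each other, as each extract's step from 20 to 500 µg/mL minus the mean step of the other 6. For Astragalus all 42 members were called (all genes 64.8%), with a median difference of -1.15, and for Paeonia 18 (22.6%), with a median of -0.19. The counts were 35 for Cnidium (22.6%), 33 for Cinnamon (18.4%), 29 for Angelica (11%), 21 for Sagunja-tang (8.08%) and 18 for Rehmannia (10.6%), mostly higher than a mean that holds the Astragalus step. With Astragalus left out of that mean Paeonia differed in 35 members (all genes 30%) with a median of -0.41, and Cnidium in 11 (7.13%). Without replicate 3 at 20 µg/mL the Angelica count was 19.

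Samul-tang had 1 library per dose, so its values have no replicate check and no test. At 20, 100 and 500 µg/mL 34, 28 and 33 of the 42 members lay below all 3 vehicle libraries, with median log2 differences of -0.16, -0.12 and -0.16. The same held for 32.1%, 32.4% and 33.8% of all tested genes. E2F1 was the lowest member at 100 µg/mL (-0.55) and at 500 µg/mL (-0.52). At 500 µg/mL MCM5 stood at 86.7 CPM, CDC6 at 88.9, PCNA at 265, UHRF1 at 81.0 and RRM2 at 321. The last of these lay among the vehicle libraries and the others below them.

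Other cell cycle genes were read from lists of textbook function. With Astragalus from 20 to 500 µg/mL, 24 of 28 other replication fork genes fell and 3 rose, the median being -0.97. WDHD1 (-2.26 ± 0.08, SE) and CLSPN (-2.04 ± 0.11), which act at the fork, and CDC7 (-2.22 ± 0.10) and DBF4 (-2.12 ± 0.11), the kinase that fires origins, fell most. All 22 other S phase and E2F target genes fell (median -1.61), led by E2F8 (-3.25 ± 0.08) and ATAD2 (-2.31 ± 0.08). All 23 mitosis genes fell (median -2.07), led by the kinetochore motor CENPE (-3.44 ± 0.22) and topoisomerase TOP2A (-2.94 ± 0.11). Of 10 tested CDK inhibitors and other cell cycle brakes 5 rose and 3 fell. CDKN2B rose by 1.47 ± 0.17, CDKN1A (p21) by 1.34 ± 0.08 and TP53INP1 by 0.97 ± 0.06, and CDKN2C, an inhibitor of the cyclin D kinases, fell by 1.36 ± 0.07. Of all genes 35.3% were called lower and 34.2% higher in this step, and the median over all genes was -0.02.

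With Paeonia the same lists moved less over the same step. Of the other fork genes 14 fell and 1 rose (median -0.27), of the other S phase genes 16 fell and 1 rose (-0.34), and all 23 mitosis genes fell (-0.59). Of the brakes 7 rose and 1 fell, and CDKN1A went from 109 and 116 CPM to 204 and 208 (0.87 ± 0.10, SE, adjusted p = 2.37e-09). CDKN2B rose by 0.84 ± 0.21 (SE, adjusted p = 0.00191). Of all genes 13.9% were called lower and 16.8% higher in this step, and the median over all genes was 0.00.

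Against vehicle, the mean of 7 extracts at 20 µg/mL had 16.8% of all genes called lower and 15.5% called higher. Differences between the lists were not tested. There 12 of 22 other S phase and E2F target genes fell and 2 rose (median -0.15), led by E2F2 (-0.48 ± 0.06, SE), the histone chaperone ASF1B (-0.45 ± 0.06), the phosphatase CDC25A (-0.41 ± 0.05) and DUT (-0.38 ± 0.07), which clears dUTP. Of 28 other fork genes 10 fell and 4 rose (median -0.10). Of 23 mitosis genes 5 fell and 7 rose, with a median of 0.13, against -0.19 for the 42 members. Of the brakes only CCNG2 was called (0.47 ± 0.07, SE, adjusted p = 1.53e-06), and CDKN1A was not (-0.09 ± 0.06, adjusted p = 0.282).

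**Figure D5:**
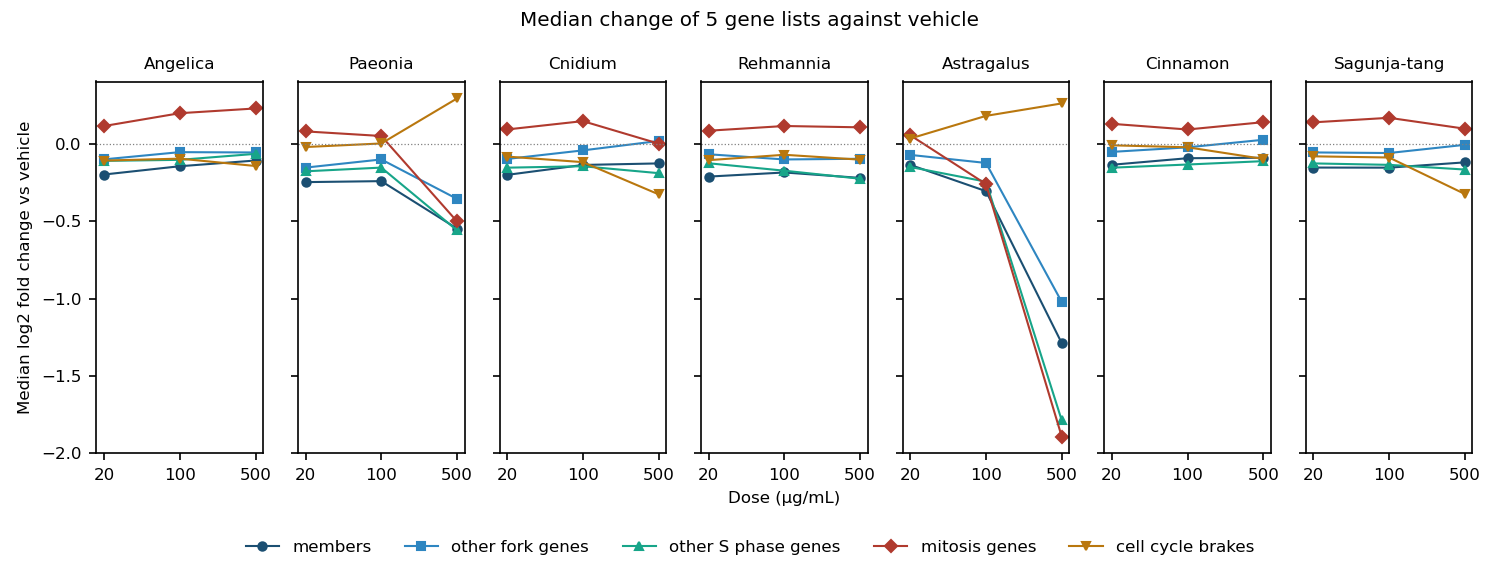
Median log2 fold change against vehicle (vertical axis) of the 42 members and 4 other gene lists at 20, 100 and 500 µg/mL (horizontal axes) in the 7 replicated extracts. Points are medians over the tested genes of a list joined by dose, with no error bars; the members reach -1.29 and the mitosis genes -1.89 with Astragalus at 500 µg/mL, and the mitosis genes lie above the members at 20 µg/mL in every extract.

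Gene length and level were weakly related to the size of the fall. Across the 42 members the Astragalus step had a Spearman rho of -0.21 with the span of the gene, -0.29 with exon length and 0.26 with the vehicle level per kb. Over 13104 protein-coding genes the same values were -0.20, -0.20 and 0.04. These are descriptions across genes from the same libraries.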

How the data were processed

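RNA of HepG2 cells was sequenced with directional libraries and paired 100 bp reads, per the labels' protocols. The authors deposited expected counts, 1 value for each gene identifier and library. The submitters' processing notes name STAR 2.7.3a, RSEM 1.3.3, Trim Galore 0.6.5 and FastQC 0.11.9 with the GRCh38 build, and the annotation release is not given in the sources used here. Symbols came from GENCODE 29 and matched 57055 of 60675 identifiers, which hold 99.96% of the counts. Of 270 columns 60 were used and 210 were not. Each group was defined by the sample title, and no 2 columns were identical.

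For testing in R 4.3.3, edgeR 4.0.16 took the rounded counts of the 16692 genes that filterByExpr kept, with TMM factors between 0.784 and 1.1. A single quasi-likelihood fit (60 libraries, 25 groups, 35 residual degrees of freedom, common coefficient of variation 0.0603) gave each two-sided contrast, with Benjamini-Hochberg adjustment over all tested genes and calls below 0.05. Groups of 1 or 2 libraries are assumed to vary like the others. Depth, 21485882 to 34643028 counts per library, limits the precision of low members such as CCNE2. CPM are TMM scaled. A prior count of 2 entered the log2 CPM behind the module levels. Alternatives were RLE size factors, no filter, DESeq2 1.42.0, a replicate block, mitochondrial genes left out, only the compared groups, the 20 µg/mL groups of the other extracts in place of vehicle, a threshold of 0.01, and each replicate left out. Leaving Astragalus out of the mean step was added after seeing the data.

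Per-library values were given for 8 role representatives. Further named members were the 3 with the largest called change in the pooled 20 µg/mL comparison and in the Astragalus and Paeonia steps, members called against the majority, and up to 4 per other list. The remaining names, such as MCM3, RRM1, POLD2 and CCNE1, were chosen after their values were seen. The members and lists were chosen with earlier results of these data known.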

Additional observations from a re-analysis of the deposited data

Results flagged for a closer look

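The dose steps of the members differed between extracts. Each extract's log2 step from 20 to 500 µg/mL was tested in edgeR against the mean step of the other 6 replicated extracts. Astragalus differed in 42 members (41 lower and CDT1 higher), where 64.8% of all genes were called, with a median difference of -1.15. Paeonia differed in 18 (all genes 22.6%), 16 lower and 2 higher, the higher ones being RRM2 (0.30 ± 0.05, SE) and E2F1 (0.41 ± 0.13). The E2F1 call was lost without replicate 2 at 20 µg/mL (adjusted p = 0.195) or replicate 3 at 500 µg/mL (0.303) of Paeonia. With Astragalus left out of that mean, RRM2 was not called higher with Paeonia, and E2F1 was (0.37 ± 0.13, SE, adjusted p = 0.0295).

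The mean step of the other extracts holds the large Astragalus step, and the remaining extracts were called mostly higher than that mean. Cnidium differed in 35 members (all genes 22.6%), 34 higher and TK1 lower, Cinnamon in 33 (18.4%), Angelica in 29 (11%), Sagunja-tang in 21 (8.08%) and Rehmannia in 18 (10.6%). The TK1 call was lost without replicate 1 of Cnidium at 500 µg/mL (adjusted p = 0.096) and without replicate 2 or 3 at 20 µg/mL (0.0651 and 0.0547). With Astragalus left out of the mean, edgeR called no member for Angelica (all genes 0.881%), Rehmannia (0.335%), Cinnamon (2.29%) and Sagunja-tang (1.17%). At an unadjusted p below 0.05 there were 11, 1, 10 and 3 members in that order. The share of all genes at that cut-off was not counted. DESeq2 was not run on that contrast. Paeonia then differed in 35 members (34 lower, all genes 30%) and Cnidium in 11 (10 higher, all genes 7.13%).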

How the results depend on the processing

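The counts for Astragalus and Paeonia at 500 µg/mL and for the mean at 20 µg/mL stayed within 1.5 times their value under each alternative run for them. Astragalus against vehicle gave 41 throughout when 1 library was left out, Paeonia 39 to 41 and the 20 µg/mL mean 22 to 27. At a threshold of 0.01 the members called against vehicle at 500 µg/mL were 3 for Angelica, 3 for Cinnamon and 10 for Cnidium. From 20 to 500 µg/mL they were 5 for Cnidium and 0 for Rehmannia, 2 between Cnidium and Rehmannia, and 79 in place of 132 over all extracts at 100 µg/mL. With no filter on low counts they were 5 for Cinnamon against vehicle, 4 between Cnidium and Rehmannia and 0 for the Sagunja-tang step. The Rehmannia step gave 2 in DESeq2 and 0 in a fit of its own groups. The 500 µg/mL groups were also set against the 20 µg/mL groups of the other 6 extracts, which cross code prefixes. The counts were 2 for Angelica (both higher, all genes 6.27%), 10 for Cnidium (8 of them higher, 31%) and 8 for Cinnamon (all higher, 10.8%). They were 2 for Rehmannia (both lower, 4.31%) and 7 for Sagunja-tang (6 higher, 22.9%). The cause was not tested. With Astragalus left out of the mean step, that mean no longer holds the Astragalus step. The counts were then 0 for Angelica (all genes 0.881%), 35 for Paeonia (30%) and 11 for Cnidium (7.13%). They were 0 for Rehmannia (0.335%), Cinnamon (2.29%) and Sagunja-tang (1.17%).

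With 1 library left out, counts at 500 µg/mL against vehicle ran from 4 to 14 for Angelica, 10 to 15 for Cnidium, 3 to 8 for Cinnamon and 7 to 16 for Sagunja-tang. Those for Rehmannia ran from 19 to 27, against 28 with all libraries. Steps from 20 to 500 µg/mL gave 5 to 7 for Cnidium, 0 to 1 for Rehmannia and 1 to 2 for Sagunja-tang, and Cnidium against Rehmannia gave 1 to 6. The Angelica step against the mean step gave 19 to 24, the 19 without replicate 3 at 20 µg/mL. Of the single gene results, counted once for each library left out, 547 kept their call and 19 lost it. These results were all called in the main fit, and some, such as the RRM2 step with Paeonia, lost their call in more than 1 refit. None of them reversed direction under any setting run.

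Over all genes, residuals gave little sign of pairing by replicate number. Libraries of equal number had a mean correlation of 0.0035 between vehicle and extracts (54 pairs) and 0.020 within a code prefix (126 pairs). At 500 µg/mL the mitochondrial share fell over replicates 1 to 3 of Cnidium (17.5%, 16.3% and 15.3%). It rose over those of Cinnamon (13.4%, 14.6% and 17.1%) and had no such order with Rehmannia. In the module level, replicate 1 was the highest library of every Astragalus and Cinnamon group, which share a prefix. Cinnamon at 500 µg/mL lay at -0.03, -0.11 and -0.11 in replicates 1 to 3, and Astragalus at 20 µg/mL at -0.07, -0.17 and -0.16. No replicate number was highest in every Cnidium and Rehmannia group. A block shared by all prefixes cannot show pairing that runs within a prefix, and such pairing was not tested. A replicate block gave 41 members for Astragalus and 40 for Paeonia against vehicle at 500 µg/mL and 27 for the 20 µg/mL mean, and moved no count by over 1.5 times. With groups of 1 to 3 libraries and members such as CCNE2 near 5 CPM, smaller differences were not detectable at this depth.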
